A study of Mus musculus with 6 samples.

Results

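The 10 genes described here, Smarca4, Smarca2, Smarcc1, Smarcc2, Smarcd1, Smarcd3, Dpf2, Dpf1, Actl6a and Actl6b, encode 5 pairs of alternative subunits of the BAF (mammalian SWI/SNF) chromatin remodelling complex. They were taken by name from a list, out of 35325 coding and long non-coding genes of the annotation, and all 10 were found. Cap analysis of gene expression (CAGE), which sequences a short tag from the 5′ end of capped RNA, had been carried out on nuclear RNA of 2 mouse cell types. One is the embryonic stem cell line R08 (mESC, 3 libraries), grown without feeder cells in serum and LIF. The other is Oli-neu (mOPC, 3 libraries), a line derived from oligodendrocyte precursor cells, known to be immortalised with an activated neu oncogene, and grown with thyroid hormones, bFGF and PDGF-BB. Each cell type is therefore 1 line in its own medium, and neither a gene alteration nor an agent was compared. The question the pairs address is which subunit of each pair the nuclear RNA of each cell type carried. Protein and the make-up of the complex were not measured.

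BAF complexes use the energy of ATP to slide or evict nucleosomes and so open or close DNA to transcription factors. Most positions in the complex can be filled by one of several paralogous subunits, and the choice differs between cell types. Embryonic stem cells are known for a form built on Smarca4 and Smarcc1, and neurons for a form in which the progenitor subunits Actl6a, Dpf2 and Ss18 have been exchanged for Actl6b, Dpf1 or Dpf3, and Ss18l1. In the oligodendrocyte lineage, Smarca4 is known as a cofactor of the lineage factor Olig2.

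A gene's level is the number of tags within 500 bp of any of its annotated 5′ ends on its strand, scaled to a library total of 1000000 tags (TPM). CAGE yields 1 tag per RNA 5′ end, so levels of different genes were compared without scaling to transcript length. The 6 libraries held between 16657021 and 40928704 tags. The mESC markers summed to between 5180 and 5689 TPM in mESC libraries and to between 41.3 and 46.1 TPM in mOPC libraries, where 7 of the 12, among them Pou5f1, Zfp42 and Dppa5a, had 0 tags. The mOPC markers summed to between 16.9 and 17.8 TPM in mESC libraries and to between 4138 and 4375 TPM in mOPC libraries, led by Ptprz1, Sox6 and Bcan, and 1 of the 12, Nkx2-2, had 0 tags there. Pdgfra rose only 1.51-fold, from a mean of 5.51 to 8.33 TPM, and the other tested mOPC markers rose at least 2-fold. Of other cell types, mature oligodendrocyte markers went from between 68.8 and 71.9 TPM in mESC libraries to between 425 and 451 TPM in mOPC libraries, and astrocyte markers from between 67.1 and 68.5 to between 341 and 368 TPM, while fibroblast markers were at between 10.9 and 25.1 TPM in all 6. These sums rest on few genes. S100b, at a mean of 206 TPM, was most of the astrocyte sum in mOPCs. Slc1a3, Aldoc and Slc1a2 also rose, but Gfap was at 0.99 TPM and Aldh1l1 fell from 8.48 to 0.02 TPM. Mobp alone of the 8 mature oligodendrocyte markers fell, from 11.0 to 0.17 TPM. Thy1 was most of the fibroblast sum in mESCs. All mESC libraries carry one library identifier and all mOPC libraries another, so that preparation and cell type cannot be told apart. In such bulk RNA, fewer cells expressing a gene and less RNA per cell cannot be told apart either. The labels do not say that the 3 libraries of a cell type came from separate cultures, so p-values measure the spread between these libraries, which may be technical.

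The cell types differ in most genes. With the quasi-likelihood test of edgeR and Benjamini-Hochberg adjustment, 15243 of 16713 genes tested (91.2%) had an adjusted p under 0.05, with 43.4% of the tested genes higher and 47.8% lower in mOPCs. With a change of at least 2-fold required as well, 30.2% were higher and 35.2% were lower. Of the 10 subunit genes, 9 passed the filter on low counts. Of these, 5 were called higher, 2 were called lower and 2 were not called. With the 2-fold minimum, 3 were higher and 1 was lower. A call by itself therefore says little here, and the text below turns on the size of each change. The median size of change, regardless of direction, was 0.84 on the log2 scale over the 9 genes and 1.62 over all genes tested.

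**Figure D1:**
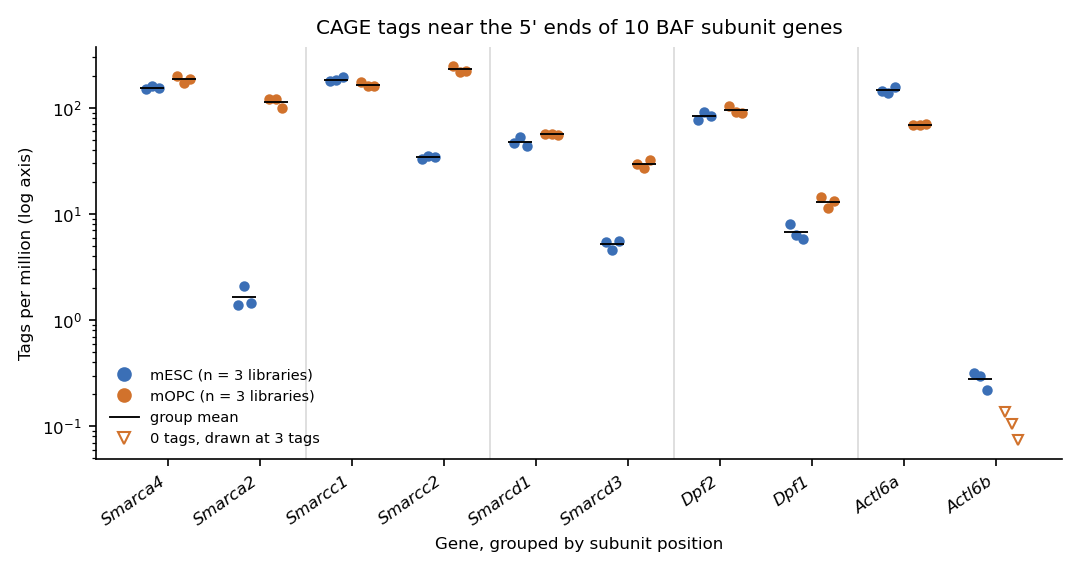
Level of each of the 10 genes in each library, in TPM on a log axis, with the mean of the 3 libraries as a line. Smarca2, Smarcc2 and Smarcd3 stand far higher in mOPCs, Actl6a stands higher in mESCs, and Actl6b has 0 tags in the 3 mOPC libraries, which are drawn as open triangles at 3 tags.

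The complex has a single ATPase, which is either Smarca4 (BRG1, chr9:21616169-21704230, plus strand of mm10) or Smarca2 (BRM, chr19:26605050-26778322, plus strand). Smarca4 was at 149, 163 and 155 TPM in the mESC libraries and at 200.4, 172 and 188 TPM in the mOPC libraries. The groups did not overlap, but the change was small, from a mean of 155.7 to one of 186.8 TPM (log2 fold change 0.20, SE 0.08, edgeR adjusted p = 0.0218). It was smaller than that of all but 7.46% of the genes tested. The adjusted p was 0.25 with DESeq2, 0.102 without mESC library 2, 0.22 without mESC library 3, 0.191 without mOPC library 1 and 0.0555 without mOPC library 3. The call for Smarca4 thus rests on these choices.

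Smarca2 behaved otherwise. The mESC libraries had 53, 35 and 27 tags of Smarca2, which is 1.40, 2.10 and 1.47 TPM, and the mOPC libraries had 122, 121 and 101 TPM. Every mOPC library was far above every mESC library, 69.4-fold by the means (log2 fold change 6.10, SE 0.13, edgeR adjusted p = 1.37e-64). This change was larger than that of 83.0% of the genes tested. Among protein-coding genes, Smarca2 moved from the 44.6th percentile of level in mESCs to the 93.9th in mOPCs, whereas Smarca4 was at the 94.7th and the 97.6th.

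The number of Smarca4 tags per Smarca2 tag was 107, 77.4 and 106 in mESC libraries and 1.64, 1.42 and 1.86 in mOPC libraries. Put as a share, Smarca4 supplied 99.0% ± 0.20 (SD, n = 3) of the ATPase tags in mESCs and 61.9% ± 3.25 (SD, n = 3) in mOPCs. The geometric mean ratio went from 95.6 to 1.63, a 58.7-fold change, without overlap between the groups (exact permutation test, two-sided, p = 0.1, which is the lowest that 3 against 3 libraries allow). Of the 5 pairs, 4 could be tested and each had this lowest p, so it does not rank them, and after Benjamini-Hochberg adjustment over the 4 it was the same. The sum of both ATPase genes went from 157 ± 6.998 to 302 ± 18.3 TPM (SD, n = 3 each), a ratio of 1.92. Smarca2 made up most of this difference.

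**Figure D2:**
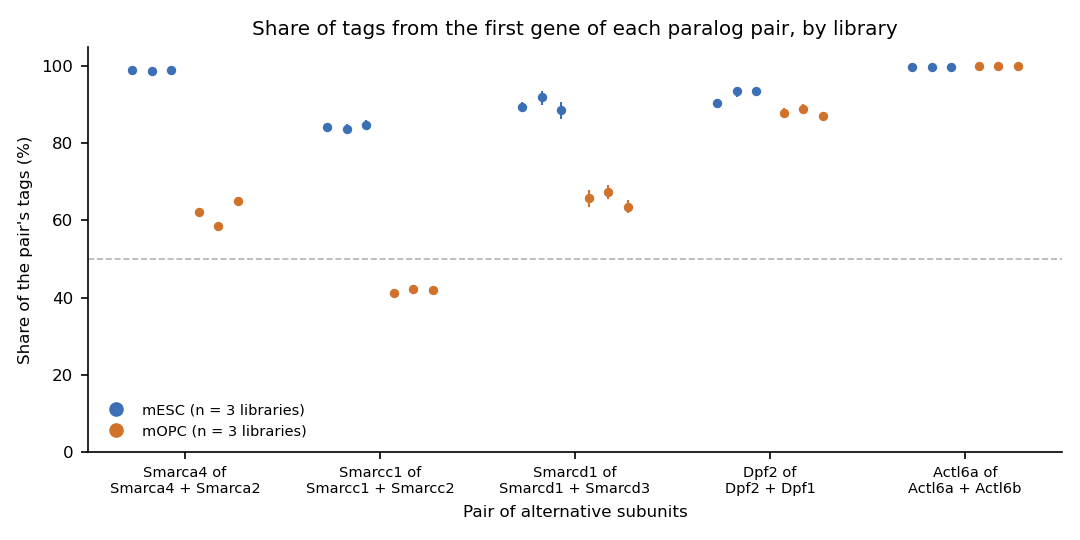
Share of each pair's tags that came from its first gene, in percent, for each library, with exact 95% binomial intervals that cover counting error only. mOPC libraries lie below mESC libraries in the 4 pairs led by Smarca4, Smarcc1, Smarcd1 and Dpf2, only the share of Smarcc1 falls below the dashed line at 50%, and Actl6a supplies nearly all tags of its pair in both cell types.

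Most RNAs of each ATPase gene started in 1 compact group of positions. To see where, positions that held 10 tags or more in the 6 libraries together were joined when at most 20 bp apart into start clusters, and clusters with at least 5% of the gene's clustered tags in a cell type were described. Smarca4 had 1 such cluster, with 99.0% of its clustered tags in mESCs and 95.8% in mOPCs, and its most used position was the same in both. Smarca2 also had 1, with 88.6% and 87.1%. Its most used position, on the plus strand of chromosome 19, took 36.9% of the cluster's mOPC tags. Smarca2 has 42 annotated 5′ ends, and the 73 mESC tags of this cluster were too few to compare positions. The sequences around both most used positions are shown to let the starts of the 2 ATPase genes be compared. Each runs from 20 bases before the listed start to 9 after it (mm10, plus strand), and capitals mark the listed start base and the base after it. The coordinates are chr9:21616253-21616282 for Smarca4, from a GENCODE transcript, and chr19:26605157-26605186 for Smarca2, from the RefSeq promoter window of GRCm38.p6.
Smarca4: gcgcgcgcgcgaggctttccCActcgcttg
Smarca2: gtcctcgctccctctgtttcTGtactctgg

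In both, a pyrimidine at the listed start is followed by a purine. Of the 17 described start clusters whose main position had sequence, 16 showed this pair of letters at the listed base and the next, and cluster 3 of Smarcc2 did not. RNAs usually start on the purine of such a pair. In RefSeq promoter windows with at least 50 tags at their top position, such a pair began at the listed base in between 87.9% and 88.8% of windows, by library, and ended at it in between 1.04% and 1.46%. The listed positions therefore lie 1 base before the usual start in all 6 libraries, a shift that is negligible for windows of 500 bp.

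Smarcc1 (BAF155, chr9:110117708-110240178, plus strand) and Smarcc2 (BAF170, chr10:128459248-128490482, plus strand) form the scaffold on which the complex assembles. Smarcc1 measured 178, 182 and 195 TPM in the mESC libraries, against 175, 160 and 162 TPM in the mOPC libraries. All mOPC libraries were lower, but by little: the change was 1.12-fold (log2 fold change -0.23, SE 0.08, edgeR adjusted p = 0.00729), and without mOPC library 2 the adjusted p was 0.0661. Smarcc2 measured 33.2, 35.4 and 34.7 TPM in the mESC libraries, against 250.1, 220.2 and 224 TPM in the mOPC libraries. It rose 6.73-fold (log2 fold change 2.68, SE 0.09, edgeR adjusted p = 4.39e-49), a change larger than that of 65.7% of the genes tested, and by 3.28 on the log2 scale with the 5′ ends of protein-coding transcripts alone.

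Smarcc1 tags outnumbered Smarcc2 tags by 5.37, 5.15 and 5.61 to 1 in mESC libraries, and the ratios were 0.70, 0.73 and 0.72 in mOPC libraries. Smarcc1 supplied 84.3% ± 0.57 (SD, n = 3) of the pair's tags in mESCs and 41.7% ± 0.55 (SD, n = 3) in mOPCs (exact permutation test, p = 0.1). This was the only pair of the 5 in which the more abundant member differed between the cell types. The sum of the pair went from 219 ± 9.10 to 397 ± 24.0 TPM (SD, n = 3 each).

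Smarcc2 had 4 start clusters above the 5% share, of 17 in all, and 3 of the 4 were used almost only in mESCs. These 3 passed the 5% minimum through their mESC shares alone. The gene had far more tags in mOPCs, so a cluster of similar level used only there would not have reached 5%. How the clusters below 5% were divided between the cell types is not described. Cluster 1, at the annotated start of the gene, was at 21.8, 22.4 and 22.1 TPM in mESC libraries and at 240.2, 210 and 214 TPM in mOPC libraries. The other 3 clusters lie inside the gene, between 14605 and 15323 bp from its start, near a transcript annotated as a retained intron. Cluster 2 had 93, 41 and 44 tags in mESC libraries, cluster 3 had 61, 32 and 39, and cluster 4 had 145, 77 and 88. In the mOPC libraries these 3 clusters held 0, 1 and 0 tags in cluster 2 and 0 tags in clusters 3 and 4. As a share of the clustered tags, cluster 1 took 69.6% ± 1.60 in mESCs and 96.2% ± 0.28 in mOPCs (SD, n = 3, exact permutation test, p = 0.1). With the best used cluster of each gene alone, the Smarcc1 to Smarcc2 ratio was 7.499 in mESCs and 0.63 in mOPCs, a larger contrast than with all starts. The windows of Smarcc2 overlap those of the microRNA gene Mir8105 on the same strand, and tags of the 2 genes cannot be told apart there.

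Within cluster 1 the starts also sat differently. The middle of the cluster, between the 10th and the 90th percentile of its tags, was 100 bp wide in mESCs but 54 bp wide in mOPCs. The most used position was chr10:128459236 in mESCs and chr10:128459301 in mOPCs. These sites and those of internal clusters 3 and 4, all on the plus strand of mm10, are shown because their use separated the cell types. They cover chr10:128459216-128459245, chr10:128459281-128459310, chr10:128474483-128474512 and chr10:128474551-128474580, with capitals as above.
Smarcc2 cluster 1, mESC top site: ggcggcgggaggcggcggtcGTggcggcgg
Smarcc2 cluster 1, mOPC top site: gctgagctgagcggggcgggCGgcggcggg
Smarcc2 cluster 3: cacagtgttccttttgcccgGGcttttccc
Smarcc2 cluster 4: ccctagcgtcccagggcccaCAgtgctcat

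Of these 4 sites, the mESC top site of cluster 1 and cluster 3 lack the pyrimidine and purine pair at the capitals, and the other two have it. Smarcc1 had 2 start clusters above the 5% share, with smaller differences between the cell types. The cluster 205 bp upstream of the first annotated start went from 7.57% ± 0.58 of the tags (mESC) to 10.0% ± 1.78 (mOPC, SD, n = 3). The second, 14352 bp into the gene and 23 bp from another annotated start, took 90.04% ± 0.92 and 84.6% ± 2.04. The most used position of each was the same in both cell types.

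Smarcd1 (BAF60A, chr15:99702129-99713991, plus strand) and Smarcd3 (BAF60C, chr5:24590818-24624411, minus strand) are alternatives at the position that contacts transcription factors, and Smarcd3 is known from heart and muscle development. Smarcd1 measured 46.4, 52.7 and 43.7 TPM in the mESC libraries, against 56.6, 56.2 and 56.1 TPM in the mOPC libraries. The groups did not overlap, yet the change of 0.18 on the log2 scale (SE 0.09) missed the threshold with edgeR (adjusted p = 0.0523). It passed with scaling to the library total (adjusted p = 0.00618), with all tags in the gene (adjusted p = 0.0239) and without mESC library 1 (adjusted p = 0.043), all with edgeR. Smarcd3 measured 5.46, 4.62 and 5.59 TPM in the mESC libraries, against 29.5, 27.2 and 32.1 TPM in the mOPC libraries. It rose 5.66-fold (log2 fold change 2.43, SE 0.12, edgeR adjusted p = 4e-35), and every mOPC library was above every mESC library. The log2 fold change was 3.48 with windows of 100 bp and 3.81 with the 5′ ends of protein-coding transcripts.

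The Smarcd1 to Smarcd3 ratio was 8.49, 11.4 and 7.83 in mESC libraries and 1.92, 2.07 and 1.75 in mOPC libraries. The share of Smarcd1 went from 90.02% ± 1.71 to 65.6% ± 1.91 (SD, n = 3, exact permutation test, p = 0.1). The difference of the log2 ratios was -2.26, and it became -3.35 with windows of 100 bp, -3.68 with the 5′ ends of protein-coding transcripts and -4.77 with the best used cluster of each gene. The size of this contrast depends on which Smarcd3 starts are counted, while its direction did not change in these settings.

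Those starts are spread along the Smarcd3 gene, on the minus strand of chromosome 5. Cluster 1, 3 bp before the annotated start of the gene, had 27, 8 and 7 tags in mESC libraries and 376, 441 and 793 in mOPC libraries. Its level went from 0.52 ± 0.17 to 17.3 ± 2.04 TPM (SD, n = 3 each), and its share of the clustered tags from 9.93% ± 3.43 to 53.0% ± 5.14 (exact permutation test, p = 0.1). Cluster 3, 20 bp into a transcript annotated as a retained intron and 56 bp into a protein-coding one, went from 0.53 ± 0.15 to 7.54 ± 0.40 TPM. Cluster 2, an intronic site 1110 bp from the nearest annotated start, went from 1.94 ± 0.25 to 5.06 ± 2.09 TPM. Clusters 4 and 5, which lie in an exon of another retained-intron transcript, measured 1.24 ± 0.37 and 0.71 ± 0.15 TPM in mESCs, against 0.87 ± 0.09 and 0.57 ± 0.27 TPM in mOPCs, and the groups overlapped in both. Together they held 36.7% ± 3.54 of the clustered tags in mESC libraries and 4.46% ± 1.15 in mOPC libraries (SD, n = 3).

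The sequences of clusters 3 and 4 are shown as one site that was higher in mOPCs and one that was not. They cover chr5:24601947-24601976 and chr5:24598706-24598735 (mm10, minus strand, written 5′ to 3′), with capitals as above.
Smarcd3 cluster 3: agaagtgtgagagagcccagCAggactcag
Smarcd3 cluster 4: gtacatgggcagccccgcggTAcgacccgg

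The genes near Smarcd3 had a positive median as well. The 19 tested protein-coding genes within 500 kb of it had a median log2 fold change of 1.56 (range -11.36 to 3.71), and 11 of them had a positive value. The part of this neighbourhood in the change of Smarcd3 was not tested. Smarcd1 had 3 start clusters above the 5% share, within 465 bp of its start, of which the middle one led with a share of 55.8% ± 2.40 in mESCs and 57.4% ± 1.58 in mOPCs (SD, n = 3). Of the other two, the first was higher in mOPCs by 4.27 percentage points, and the share of the third differed by -6.41 percentage points.

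**Figure D3:**
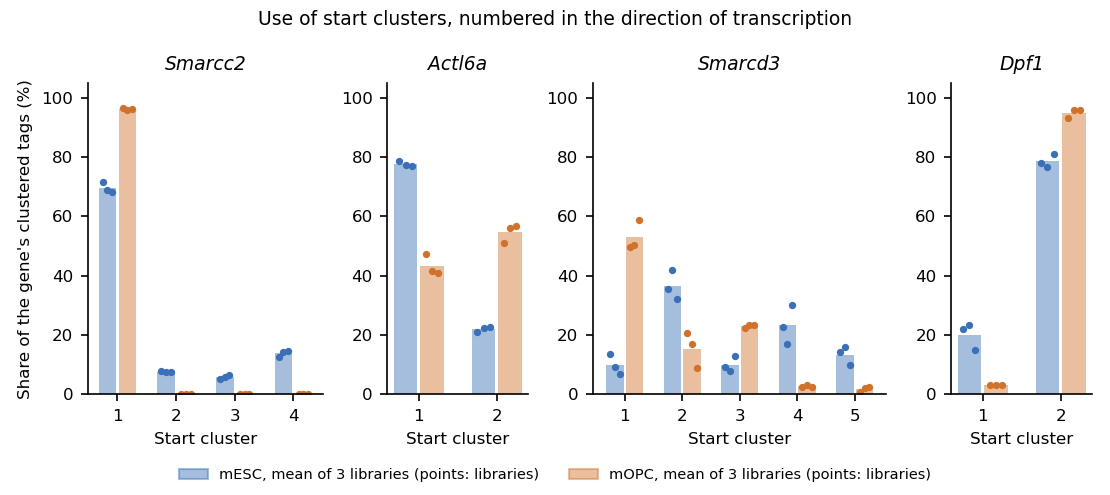
Share of each gene's clustered tags, in percent, that fell in each of its start clusters, as the mean of 3 libraries (bars) and the single libraries (points). Clusters 2 to 4 of Smarcc2 held almost no mOPC tags, the larger mESC shares of clusters 4 and 5 of Smarcd3 stand beside overlapping levels in TPM, and the leading cluster of Actl6a changed from 1 to 2.

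Dpf2 (BAF45D, chr19:5896516-5913010, minus strand) and Dpf1 (BAF45B, chr7:29303951-29318243, plus strand) carry paired PHD fingers that read histone tails, and Dpf1 belongs to the neuronal form of the complex. Dpf2 measured 77.0, 91.0 and 84.6 TPM in the mESC libraries, against 104, 92.2 and 90.03 TPM in the mOPC libraries. The groups overlapped, and the change of 0.11 on the log2 scale (SE 0.08) did not pass the threshold (edgeR adjusted p = 0.2). It passed with scaling to the library total (edgeR adjusted p = 0.0355). Dpf1 measured 8.10, 6.36 and 5.81 TPM in the mESC libraries, against 14.3, 11.4 and 13.2 TPM in the mOPC libraries. It rose 1.92-fold (log2 fold change 0.84, SE 0.13, edgeR adjusted p = 8.01e-09), which is less than the median size of change of all genes tested.

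The Dpf2 to Dpf1 ratio was 9.50, 14.3 and 14.6 in mESC libraries and 7.25, 8.10 and 6.80 in mOPC libraries. The lowest mESC value stood close to the highest mOPC value, though the groups did not overlap (exact permutation test, p = 0.1). Dpf2 supplied 92.5% ± 1.76 of the pair's tags in mESC libraries and 88.0% ± 0.93 in mOPC libraries (SD, n = 3). Most of the pair's tags were thus those of Dpf2 in both cell types. The 23 tested protein-coding genes within 500 kb of Dpf1 had a median log2 fold change of -2.46 (range -12.45 to 3.42), opposite in sign to that of Dpf1. Within the same distance, the 1 tested protein-coding gene near Smarca2 had a value of 2.95, and the 44 near Smarcc2 had a median of -0.08. The part of these neighbourhoods in the changes was not tested.

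Dpf1 also differed in its starts. Cluster 1, 18 bp from the start of the gene, had 51, 18 and 11 tags in mESC libraries and 8, 8 and 14 in mOPC libraries, which is 20.1% ± 4.59 and 3.04% ± 0.04 of the clustered tags (SD, n = 3). Cluster 2, 4101 bp downstream, took 78.5% ± 2.29 and 95.0% ± 1.48 (exact permutation test, p = 0.1 for both). The level of cluster 1 was 1.01 ± 0.38 TPM (mESC) and 0.33 ± 0.05 TPM (mOPC), and that of cluster 2 was 3.85 ± 0.79 and 10.3 ± 1.44 TPM. The tags added in mOPCs were thus those of the downstream start. Dpf2 had a single such cluster, with 99.86% or more of its clustered tags in each library.

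The Dpf1 sites are shown because they were used in opposite directions, and that of Dpf2 as the single start of its paralog. They cover chr7:29303949-29303978 and chr7:29308032-29308061 (mm10, plus strand) and chr19:5912799-5912828 (minus strand, written 5′ to 3′).
Dpf1 cluster 1: gccgcagccccaagaatgaaTGaaatcgta
Dpf1 cluster 2: cggcagggacctgctgggggCAggacccgg
Dpf2: cgcctgcgcgttgtaggtttCGgggcctcc

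Actl6a (BAF53A, chr3:32706298-32726973, plus strand) and Actl6b (BAF53B, chr5:137553517-137569582, plus strand) are the actin-related subunits, and the exchange of the first for the second is a known step of the switch as neurons leave the cell cycle. Actl6a measured 143, 138 and 158 TPM in the mESC libraries, against 69.0, 69.4 and 70.9 TPM in the mOPC libraries. It fell 2.10-fold by the means (log2 fold change -1.14, SE 0.08, edgeR adjusted p = 1.74e-23), and every mOPC library was below every mESC library. It was the only one of the 10 genes called lower with a change of at least 2-fold.

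Actl6b was barely detected. The mESC libraries had 12, 5 and 4 tags of Actl6b, and the mOPC libraries had 0, 0 and 0. It did not pass the filter on low counts and was not tested. Taking 3 counts over the pooled mOPC tags as the limit that a count of 0 allows, its level of 0.29 TPM in the pooled mESC libraries was at least 8.80-fold higher than in mOPCs. The limit for the pooled mOPC libraries is 0.03 TPM. Actl6a tags outnumbered Actl6b tags by 452, 460 and 729 to 1 in mESC libraries, and by at least 504, 667 and 968 to 1 in mOPC libraries, with each 0 taken as 3 tags. The bounds do not let the ratios of the cell types be compared. In mOPCs, 5 of the 12 neuron markers, Rbfox3, Snap25, Stmn2, Syp and Nefl, also had 0 tags in all libraries, whereas Map2 was at 172, 180 and 154 TPM and Syt1 at 83.5, 101 and 80.6 TPM. The 12 neuron markers together were at between 371 and 400.3 TPM in mESC libraries, mostly Stmn2, and at between 292 and 334 TPM in mOPC libraries, and their part in the levels of the neuronal subunits was not tested.

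The lower level of Actl6a was that of 1 of its 2 start clusters above the 5% share, which lie 290 bp apart. Cluster 1 was at 110.2, 104.5 and 119 TPM in mESC libraries and at 31.8, 28.1 and 28.3 TPM in mOPC libraries. Cluster 2 was at 29.2, 30.02 and 34.9 TPM in mESC libraries and at 34.4, 37.7 and 39.2 TPM in mOPC libraries, and the groups overlapped. The share of cluster 1 went from 77.8% ± 0.94 to 43.3% ± 3.39 and that of cluster 2 from 21.9% ± 0.92 to 54.7% ± 3.12 (SD, n = 3, exact permutation test, p = 0.1 for both). With windows of 100 bp around the annotated 5′ ends, which hold cluster 1 but not the main position of cluster 2, the log2 fold change of Actl6a was -1.94. The most used position of each cluster was the same in both cell types. Both sites are shown because the balance between them separated the cell types, and they cover chr3:32708675-32708704 and chr3:32708965-32708994 (mm10, plus strand).
Actl6a cluster 1: tggttgatacgagaaaccagCAagagtggc
Actl6a cluster 2: cggcgggcccttccggtcttTGgacggtgc

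All 10 genes have a RefSeq promoter window, 250 bases before to 50 after the annotated start (GRCm38.p6). The windows do not hold every start used here. That of Actl6a ends before both of its start clusters, and that of Dpf1 holds cluster 1 but not cluster 2. That of Smarcd3 holds the main position of cluster 3 but not cluster 1. The ratio of observed to expected CpG in these windows had a median of 0.94 over the 10 genes and of 0.38 over all 32851 windows, and it was between 0.78 for Dpf2 and 1.05 for Smarcc1. TATAAA was found on either strand in 0 of the 10 windows and in 13.6% of all windows. GGGCGG was found in 9 of the 10, all but Dpf2, and in 35.7% of all windows, and CCAAT in 3 of the 10, those of Actl6b, Dpf2 and Dpf1, and in 37.4% of all windows. GGGCGG was thus shared by genes that rose, fell and did not pass the test. CCAAT was absent from the windows of Smarcc1 and Actl6a, the genes called lower. It was equally absent from those of Smarca4, Smarca2, Smarcc2 and Smarcd3, which were called higher, and of Smarcd1, which was not called.

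The other subunits of the complex moved in both directions, as did the genes tested at large. Of 21 further BAF subunit genes, all of which were tested, 12 were called higher and 7 lower in mOPCs and 2 were not called. Over all genes tested, 43.4% were called higher and 47.8% lower. By at least 2-fold, 6 of the 21 were higher and 4 lower, beside 30.2% and 35.2% of all genes tested. The median log2 fold change of the 21 was 0.60, and that of all genes tested was -0.12. The sum of the 21 genes was between 1712 and 1812 TPM in mESC libraries and between 1234 and 1298 TPM in mOPC libraries, and Actb, the actin gene, which many other processes use, was the largest part of it. Actb fell from 1079 ± 72.0 to 456 ± 22.9 TPM (SD, n = 3 each).

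Further alternative pairs include 2 with a neuronal partner. Dpf3, the other neuronal partner of Dpf2, rose from 0.67 ± 0.14 to 6.46 ± 0.40 TPM (log2 fold change 3.27, SE 0.21, edgeR adjusted p = 5.21e-27). Ss18l1, the neuronal partner of Ss18, rose from 4.71 ± 0.31 to 9.66 ± 1.04 TPM (log2 fold change 0.97, SE 0.14, edgeR adjusted p = 7.36e-10). Ss18 measured 64.4 ± 6.28 TPM in mESCs against 64.0 ± 9.06 TPM in mOPCs, and its groups overlapped (edgeR adjusted p = 0.389). With all tags in the gene, however, it was called lower (log2 fold change -0.33, edgeR adjusted p = 0.000238). Ss18 supplied 86.8% ± 0.79 of its pair's tags in mOPCs, after 93.2% ± 0.23 in mESCs (SD, n = 3 each).

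The DNA-binding ARID subunits also differed in their balance. Arid1a fell from 44.9 ± 3.51 to 24.4 ± 1.06 TPM (log2 fold change -0.95, SE 0.09, edgeR adjusted p = 1.3e-16) and Arid1b rose from 16.0 ± 1.60 to 37.6 ± 3.48 TPM (log2 fold change 1.17, SE 0.10, edgeR adjusted p = 1.26e-19). The Arid1a to Arid1b ratio was 2.78, 3.11 and 2.58 in mESC libraries and 0.67, 0.61 and 0.68 in mOPC libraries, so here too the more abundant member differed. Bcl11a, a zinc finger subunit, rose from 1.99 ± 0.36 to 6.20 ± 0.62 TPM, while its paralog Bcl11b had 23, 7 and 8 tags in mESC libraries and 0, 1 and 1 in mOPC libraries. Smarcd2, the third SMARCD gene, measured 16.2 ± 1.86 TPM in mESCs against 25.8 ± 2.42 TPM in mOPCs. Its log2 fold change of 0.60 (SE 0.10, edgeR adjusted p = 1.9e-07) turned to -0.22 with windows of 100 bp.

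Among other subunits with at least 1 TPM in the higher cell type, the largest called changes beside that of Dpf3 were in subunits that define the PBAF and the non-canonical complex. Brd9, of the non-canonical complex, rose from 29.1 ± 1.08 to 133 ± 1.53 TPM (log2 fold change 2.13, SE 0.09, edgeR adjusted p = 4.8e-41). Bicral, of the same complex, fell from 40.8 ± 2.07 to 22.2 ± 0.94 TPM (log2 fold change -0.95, SE 0.09, edgeR adjusted p = 2.25e-16). Bicra, also of that complex, was not called (log2 fold change -0.16, SE 0.12, edgeR adjusted p = 0.186). Brd7 fell from 190.1 ± 12.6 to 51.0 ± 1.31 TPM (log2 fold change -1.96, SE 0.09, edgeR adjusted p = 1.75e-39) and Pbrm1 fell from 83.6 ± 4.90 to 27.1 ± 2.61 TPM (log2 fold change -1.70, SE 0.09, edgeR adjusted p = 6.11e-33), both subunits of PBAF. Arid2, the ARID subunit of PBAF, rose (log2 fold change 2.09, SE 0.09, edgeR adjusted p = 5.54e-35). The subunits that define PBAF thus did not move together, and neither did those of the non-canonical complex.

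**Figure D4:**
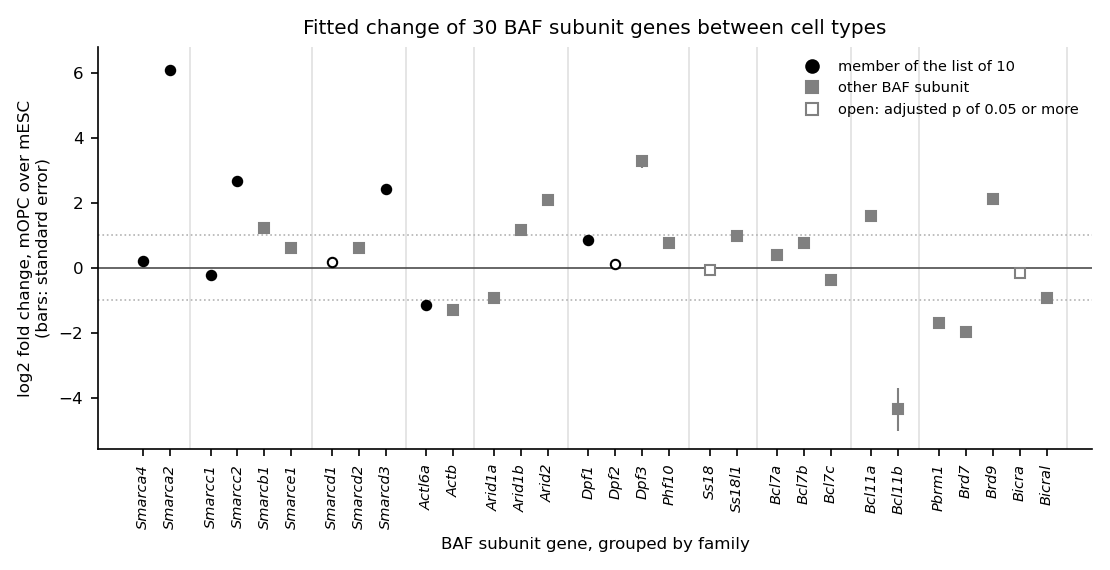
Fitted log2 fold change of mOPC over mESC for the 9 tested genes of the list (circles) and the 21 other BAF subunits (squares), grouped by family, with standard errors as bars and dotted lines at a 2-fold change. Smarca2, Smarcc2, Smarcd3 and Dpf3 lie far above their paralogs, Bcl11b lies lowest, open symbols did not pass the threshold, and Actl6b is absent since it was not tested.

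Remodelers outside the BAF family and the known regulators of the neuronal exchange were taken as a comparison. Of 21 other remodeler ATPases, 7 were called higher, 11 lower and 3 were not called, with a median log2 fold change of -0.47. Of all genes tested, 43.4% were called higher and 47.8% lower. With the 500 bp windows, the largest rise was that of Chd3, an ATPase of the NuRD complex, which was at 5.20, 5.16 and 5.21 TPM in mESC libraries and at 293, 245 and 276 TPM in mOPC libraries (log2 fold change 5.64, SE 0.11, edgeR adjusted p = 2.44e-68). This size depends on the starts counted, since the log2 fold change was 0.55 with windows of 100 bp (edgeR adjusted p = 0.000767) and 3.75 with all tags in the gene. Chd5 measured 2.93, 2.52 and 3.04 TPM in the mESC libraries, against 11.7, 10.8 and 11.1 TPM in the mOPC libraries, and its log2 fold change of 1.90 was between 1.15 and 2.55 in the other settings. Chd4, their paralog, overlapped between the groups (log2 fold change -0.15, SE 0.08, edgeR adjusted p = 0.0813). In the other direction, the ISWI gene Smarca1 had 1021, 493 and 472 tags in mESC libraries and 0, 0 and 1 in mOPC libraries, and Hells, needed for DNA methylation, fell from between 431 and 532 TPM to between 21.4 and 25.0 TPM (log2 fold change -4.43, SE 0.10, edgeR adjusted p = 6.9e-62).

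Of 7 regulators of the neuronal exchange, 3 were called higher and 4 lower, beside 43.4% and 47.8% of all genes tested. Rest, the repressor of neuronal genes outside the nervous system, was at 157, 165 and 151 TPM in mESC libraries and at 29.1, 32.7 and 32.1 TPM in mOPC libraries (log2 fold change -2.40, SE 0.09, edgeR adjusted p = 3.84e-45). Its corepressor gene Rcor1 rose by 0.60 on the log2 scale (SE 0.11, edgeR adjusted p = 1.57e-07), and the deacetylase gene Hdac1 fell by 2.91 (SE 0.12, edgeR adjusted p = 2.82e-40). Its paralog Hdac2 was far more abundant, at 285 TPM in mESCs against 28.2 TPM for Hdac1. Hdac2 rose by 0.21 (SE 0.08, edgeR adjusted p = 0.0145). Ptbp2, the neural paralog of the splicing regulator Ptbp1, rose by 2.48 (SE 0.09, edgeR adjusted p = 8.16e-46). Ptbp1 itself fell by 1.58 (SE 0.09, edgeR adjusted p = 4.03e-32). Actl6b had 12, 5 and 4 tags in mESC libraries and 0 in mOPC libraries, and its relation to the level of Rest was not tested.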

How the data were processed

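Nuclear CAGE of 3 mESC and 3 mOPC libraries was analysed. Per the study's methods, the authors removed reads with ambiguous bases, trimmed linkers and kept tags aligned uniquely to mm10 with bowtie. The submitters' processing notes list CASAVA 1.8 and BWA 0.5.9 instead, and which aligner made the files is not given in the sources used here. The values the authors deposited are raw counts of tags per position and strand, 1 file per library, without normalization.

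Tags within 500 bp of the annotated 5′ ends (GENCODE vM21, GRCm38) of the gene on its strand were summed, and a tag near several genes counted for each. Genes were tested with edgeR 4.0.16 in R 4.3.3 (quasi-likelihood, TMM, filterByExpr, Benjamini-Hochberg adjusted p under 0.05 over all genes tested). DESeq2 1.42.0, other scalings and windows, thinning to the smallest library, a replicate block and leaving out each library were alternatives. Log2 fold changes are mOPC over mESC after TMM scaling, which differs from scaling to the library total by 0.07 over all genes, while levels in TPM use the library total. Ratios and start-cluster shares were compared with two-sided exact permutation tests (Python 3.11.15, scipy 1.17.1). Tags carry no molecular identifiers, so intervals and the limit of 3 counts behind a 0 cover counting error only. Library totals, between 16657021 and 40928704 tags, set the precision for weak genes. The test was checked on simulated counts of 16270 genes for this comparison: of 200 genes changed by 1 on the log2 scale, 181 (90.5%) were recovered, and 6 of 187 calls were false. In the simulation all other genes were unchanged and every gene had the same spread, whereas 91.2% of genes were called in the data. The check therefore does not cover the choice of scaling or changes smaller than those planted.

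The 10 genes, the gene lists and the rule for named genes were chosen with earlier results of these data known. The rule names the 10 genes, those of 5 further alternative pairs, in each comparison list up to 2 called genes with the highest and 2 with the lowest change and at least 1 TPM, and the 3 most abundant genes of each marker list, of which only those touching a result are given. Replicate numbers were not used to pair libraries, as the deviations of same-numbered libraries from their group means correlated by -0.0025, 0.06 and 0.01. No libraries of a group were duplicates, since counts of each pair differed by more than sampling noise (chi-square per degree of freedom 4.26 or more).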

Additional observations from a re-analysis of the deposited data

How the results depend on the processing

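Of 1032 values recomputed under an alternative, 1008 kept their direction and their side of the threshold, or stayed within the spread of the libraries. For the tested ratios and start-cluster shares, the exact permutation test allows no p below 0.1, so at most their direction could change. A change of size alone was not counted for these or for fold changes. The number kept therefore does not measure how steady the sizes were. The log2 fold change of Smarca4 lost its call with DESeq2 (0.101), with DESeq2 size factors in edgeR (0.101), without the filter on low counts (0.144), with windows of 100 bp (0.102) and after thinning (0.145), and ranged from 0.120 to 0.273 with single libraries left out. That of Smarcc1 ranged from -0.304 to -0.182 with single libraries left out and lost its call without mOPC library 2. That of Smarcd1 gained a call with scaling to the library total (0.245) and with all tags in the gene (0.198), and ranged from 0.0499 to 0.200 with single libraries left out. That of Dpf2 gained a call with scaling to the library total (0.181). Smarcd2 reversed with windows of 100 bp (-0.223), and Ss18, which was not called, gained a call as lower with all tags in the gene (-0.325) and ranged from -0.146 to 0.0251 with single libraries left out. The Actl6a to Actl6b log2 difference, computed with each 0 set to 3 tags, was 0.37, and moved to -0.411 with windows of 100 bp, 1.70 with all tags in the gene, 2.19 with 1 tag added and -0.582 after thinning, so no direction is read from it. The share of the Smarca2 start cluster differed by -1.56 percentage points, by 1.48 with positions of at least 2 tags, and by between -3.89 and 1.33 with single libraries left out. The largest move of a log2 fold change was that of Chd3, which kept its call and went from 5.64 to 0.548 with windows of 100 bp. In each of these cases the cause was not tested.

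With a replicate block, the log2 fold change of Smarcd1 was 0.179 and gained a call (edgeR adjusted p = 0.0452), 7228 genes were called higher and 7996 lower, and no other call of the 10 genes changed. The numbers share no source that the labels state. For the 4 tested log2 ratios, an exact sign-flip permutation test of the within-number differences gave p = 0.25, the lowest that 3 pairs allow. For 4 combinations of a start cluster and a setting no matching cluster was found, and no value is given. Depth limits Actl6b, the mESC tags of Smarca2 and the weaker clusters of Smarcd3 and Dpf1.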
